A study of Mus musculus with 4 samples.

Results

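Myeloid-recruiting chemokines of the mouse liver, and the receptors that read them, are described here across 4 libraries of sorted liver leukocytes. The 10 genes were taken by symbol from the 32285 features of each matrix, and each symbol was found. They are the ligands Cxcl1, Cxcl2, Cxcl3, Ccl2, Ccl7, Ccl6, Ccl9 and Cxcl16 and the receptors Ccr2 and Cxcr2. All mice carried the IL-22sgBFP reporter genotype, in which a blue fluorescent protein (BFP) reports IL-22, a cytokine of lymphocytes. CD45+ leukocytes were freed from the liver by collagenase and DNase I digestion, enriched on Percoll and sorted by BFP. Mice of the 12 h groups had received 300000 MC38 cells, a mouse colon carcinoma line, in 250 µl of PBS by injection into the spleen, and mice of the 0 h groups were taken before any injection. Spleen blood drains to the liver, and this route is used to seed liver metastases.

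The 4 groups were cells labelled IL-22-positive 12 h after injection, cells labelled IL-22-positive at 0 h, cells labelled IL-22-negative 12 h after injection and cells labelled IL-22-negative at 0 h. Each group was 1 library of the 10x Single Cell 3' v2 kit. The labels give neither the number of mice behind a library nor an injection without cancer cells, so what followed from the injection itself and what followed from the MC38 cells cannot be told apart. With 1 library per group no difference could be tested, and no p-value is given. Values are counts of unique molecular identifiers (UMIs, each marking 1 captured transcript), summed per library or per class of cells and given as CPM, counts per 1000000 UMIs of the same sum. Bracketed ranges are exact 95% intervals (Poisson for levels, Clopper-Pearson for shares and ratios), which cover counting error only and not the spread between mice. For levels and ratios each UMI is treated as an independent draw, so the spread between cells is not covered either. Where a few cells hold many of the UMIs, the ranges are too narrow. A gene is called higher or lower where the ratio is at least 2-fold and at least 20 UMIs stand behind it.

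Chemokines are small secreted proteins that draw cells along a gradient through receptors on the target cell. Cxcl1, Cxcl2 and Cxcl3 bind Cxcr2 and recruit neutrophils. Ccl2 and Ccl7 bind Ccr2, which classical monocytes need to leave the bone marrow and enter inflamed tissue, while Ccl6 and Ccl9 are mouse chemokines that act through Ccr1. Cxcl16 is made as a membrane-bound protein and binds Cxcr6, a receptor of liver-resident T cells, NKT cells and innate lymphocytes. In the liver these ligands are known from macrophages, monocytes, endothelial cells, stellate cells and hepatocytes, of which a CD45+ sort keeps the leukocytes.

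The library of IL-22-positive cells at 12 h held 1335 cells and 4953169 UMIs after filtering, and that of IL-22-positive cells at 0 h held 288 cells and 1131358 UMIs. The IL-22-negative libraries held 9283 cells and 25962423 UMIs at 12 h, and 7750 cells and 16904477 UMIs at 0 h. Median UMIs per cell were 3693 at 12 h and 3387 at 0 h for IL-22-positive cells, and 2140.0 at 12 h and 1788 at 0 h for IL-22-negative cells. The reporter transcript is not among the features, and Il22 itself did not tell the 2 labels apart at 12 h. It had 0 UMIs in the 12 h IL-22-positive library, where 3 UMIs would be 0.606 CPM, and 1 UMI in the 12 h IL-22-negative library. Such counts give no direction. At 0 h it had 6 UMIs in 3 IL-22-positive cells and 15 UMIs in 6 IL-22-negative cells, which is 5.30 (1.95 to 11.5) against 0.887 (0.497 to 1.46) CPM. The names IL-22-positive and IL-22-negative are therefore used as sort labels only. No second IL-22-positive library of 12 h is at hand, so results of that fraction cannot be given without it, and each is set beside the IL-22-negative fraction. Of 18656 kept cells, 127 barcodes occurred in 2 libraries.

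Cells were clustered without any chemokine or chemokine receptor gene, and clusters were named from marker lists that hold none of the 10 members. Monocyte-like cells formed 1 cluster of 1904 cells, with 13 of 15 monocyte markers raised and Saa3, Chil3 and Lyz2 in the lead. Cxcl2 was itself among the 10 leading genes of that cluster, so its high level there against other cells is a description. They were 1064 of the 1335 IL-22-positive cells at 12 h (79.7%) and 136 of the 288 IL-22-positive cells at 0 h (47.2%). In the IL-22-negative libraries they were 6.16% of cells at 12 h (572 of 9283) and 1.70% at 0 h (132 of 7750). Macrophage-like cells, raised in 5 of 13 macrophage markers and led by C1qa, C1qc and C1qb, numbered 98 at 12 h and 42 at 0 h among IL-22-positive cells, and 14 at 12 h and 3 at 0 h among IL-22-negative cells. Neutrophil-like cells numbered 22 at 12 h and 1 at 0 h among IL-22-positive cells, and 48 at 12 h and 9 at 0 h among IL-22-negative cells. Basophil-like cells, 24 at 12 h and 38 at 0 h, were found in the IL-22-negative libraries. The other classes were conventional dendritic cells (cDC), plasmacytoid dendritic cells, T cells, NK cells or ILC1, B cells and plasma cells, and 3 clusters stayed unnamed. Of these, 2 were of low depth, and the third, of 194 cells, had 9 of 15 monocyte markers and 6 of 9 markers of plasmacytoid dendritic cells raised.

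The 3 neutrophil attractants lie in one gene cluster on mouse chromosome 5 (GRCm38), all on the plus strand: Cxcl3 at chr5:90786103-90789600, Cxcl1 at chr5:90891241-90893115 and Cxcl2 at chr5:90903871-90905938. Their promoters are shown because the 3 genes share an exact run of letters there. RefSeq (GRCm38.p6) gave promoter windows for 7 of the 10 members, all but Ccl2, Ccl7 and Cxcl16. Each stretch below runs 5′ to 3′ on the plus strand and ends before the gene's RefSeq start. The capitals mark the longest run that all 3 windows share, GGGAATTTCCC, which has the form of a site for NF-kappaB, a transcription factor of inflammatory genes.
Cxcl1: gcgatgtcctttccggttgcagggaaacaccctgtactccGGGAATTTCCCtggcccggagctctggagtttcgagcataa
Cxcl2: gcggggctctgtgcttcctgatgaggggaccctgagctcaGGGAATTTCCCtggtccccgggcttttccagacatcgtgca
Cxcl3: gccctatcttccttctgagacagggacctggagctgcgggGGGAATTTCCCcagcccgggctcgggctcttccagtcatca

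These stretches are chr5:90891134-90891214, chr5:90903762-90903842 and chr5:90785988-90786068 in the order shown, and the run begins 71, 97 and 73 bases before the RefSeq starts of Cxcl1, Cxcl2 and Cxcl3, which differ by some bases from the annotated gene starts given above. Searched on both strands, it occurred once in each of these windows of 250 bases and in 14 of 32851 RefSeq windows of that length (0.0426%). The run was chosen because the 3 windows share it, so its presence in them is no test. The windows of Ccl6, Ccl9, Ccr2 and Cxcr2 do not hold these letters. Cxcl1 and Cxcl2 share the longer run GGGAATTTCCCTGG, which contains the first and was found in 2 windows of the whole table. A match is a description of the letters, and binding was not measured.

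The second pair of neighbours, Ccl9 at chr11:83572919-83578636 and Ccl6 at chr11:83587882-83593087, both on the minus strand, share another run. It is shown because both genes were measured in the same cells, described below. The capitals mark the shared run GCCCTCCACTTCC, which 5 windows of the table hold, and the stretches are chr11:83593130-83593182 for Ccl6 and chr11:83578638-83578690 for Ccl9, both read on the minus strand.
Ccl6: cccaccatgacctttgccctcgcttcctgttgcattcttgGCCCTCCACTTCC
Ccl9: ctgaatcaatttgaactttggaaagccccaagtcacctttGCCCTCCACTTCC

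The remaining members lie at chr11:82035571-82037453 (Ccl2, plus strand), chr11:82045712-82047525 (Ccl7, plus strand), chr11:70453983-70459984 (Cxcl16, minus strand), chr9:124101950-124113557 (Ccr2, plus strand) and chr1:74153989-74161246 (Cxcr2, plus strand). Several of these ligands are close relatives of their neighbours, and reads were counted at the 3' end, so a small part of a gene's UMIs may belong to a relative.

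Across whole libraries, the ligands were more abundant 12 h after injection in both fractions, with Cxcl16 in IL-22-positive cells as the exception. In the IL-22-positive fraction 6 of the 10 members were called higher at 12 h and 0 lower, against 4.92% of 9104 measured genes called higher and 9.93% called lower. In the IL-22-negative fraction 9 of 10 were called higher and 0 lower, against 4.11% of 12896 genes higher and 3.47% lower. The median log2 ratio of 12 h over 0 h was 1.49 over the 10 members and -0.08 over all measured genes in the IL-22-positive fraction, and 1.91 over the members and -0.17 over all genes in the IL-22-negative fraction. A library sum changes both with the makeup of the cells and with the RNA in each cell. The 2 are set apart below for makeup by class, while shifts inside a class remain.

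**Figure D1:**
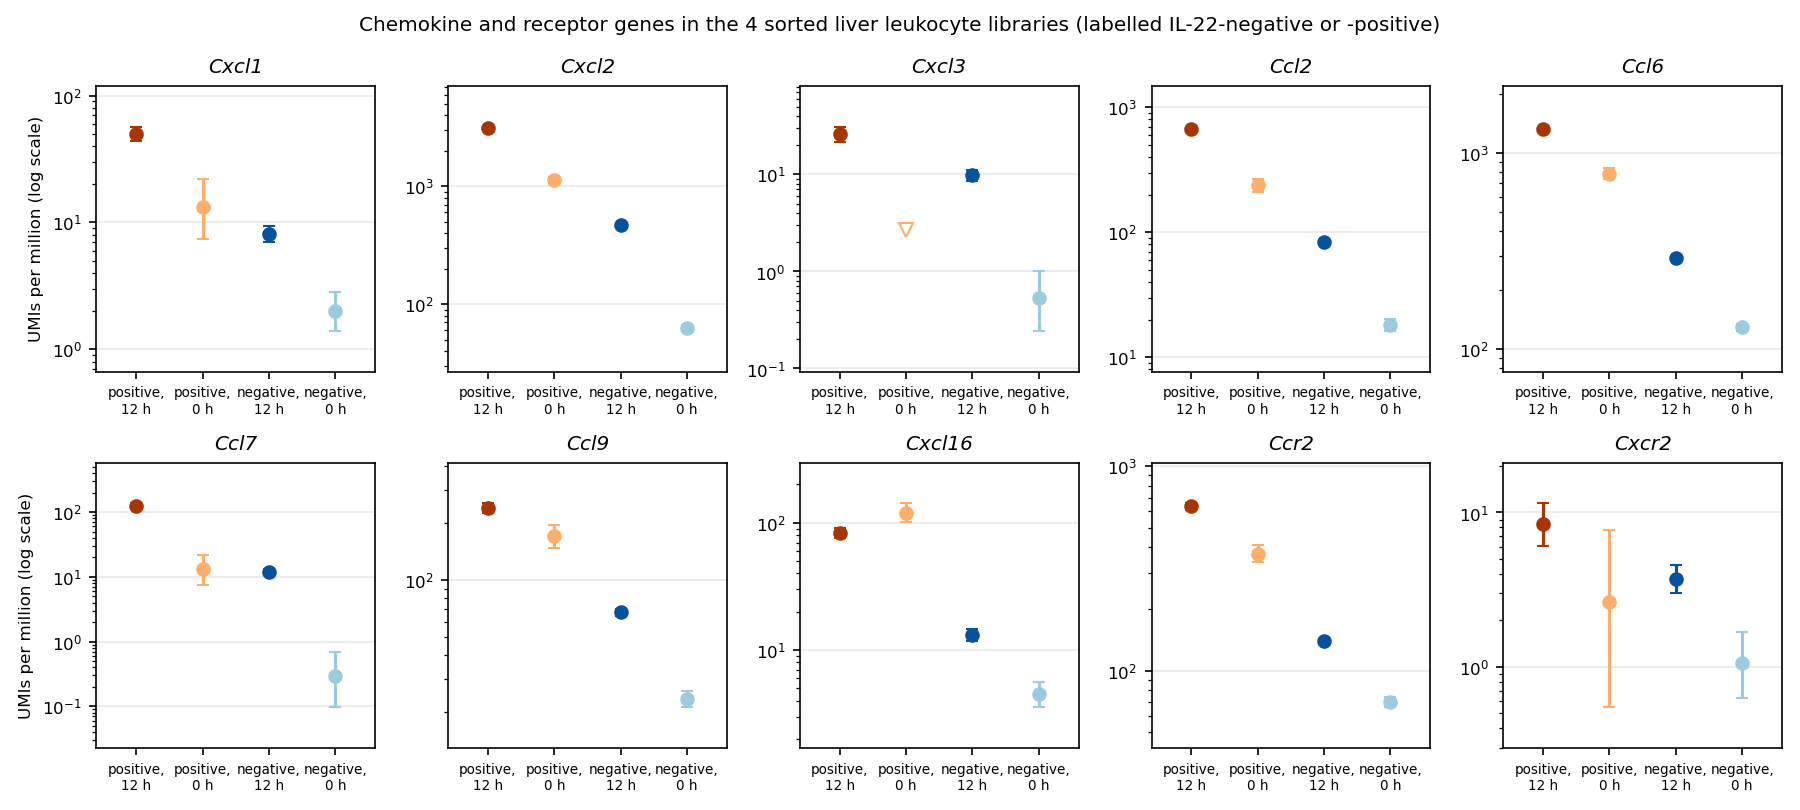
Level of each gene in the 4 libraries, as CPM on a log scale, with exact 95% Poisson intervals. Each panel runs from IL-22-positive cells (12 h, 0 h) to IL-22-negative cells (12 h, 0 h), and an open triangle is a library with 0 UMIs, drawn at 3 UMIs. Of the 10 genes, 9 are highest in the 12 h IL-22-positive library, and Cxcl16 is highest in that of 0 h.

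Cxcl2, a ligand that brings neutrophils into tissue, was the most abundant member in the libraries of 12 h. It reached 3153 (3103 to 3202) CPM in IL-22-positive cells at 12 h, against 1126 (1065 to 1189.7) at 0 h. IL-22-negative cells had 473.0 (464.7 to 481.5) CPM at 12 h, against 62.9 (59.2 to 66.8) at 0 h. The 12 h level was 2.80 times that of 0 h (2.64 to 2.97) in the IL-22-positive fraction and 7.52 times (7.06 to 8.02) in the IL-22-negative one. It was carried by 924 of the 1335 IL-22-positive cells at 12 h (69.2%) and 96 of 288 at 0 h (33.3%), and by 783 IL-22-negative cells at 12 h (8.43%) and 170 at 0 h (2.19%).

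Monocyte-like cells held most of its UMIs. They had 13936 of the 15615 Cxcl2 UMIs of the 12 h IL-22-positive library (89.2%) and 939 of 1274 at 0 h (73.7%). In the IL-22-negative libraries they held 10009 of 12281 UMIs at 12 h (81.5%) and 736 of 1063 at 0 h (69.2%), from 6.16% and 1.70% of the cells. Within these cells Cxcl2 was at 3287 (3233 to 3342) CPM at 12 h against 1616 (1515 to 1723) at 0 h in the IL-22-positive fraction, a ratio of 2.03 (1.90 to 2.17). The makeup of these cells differed between the times: the Arg1-led, S100a8-led and Ace-led sub-clusters described below were 312, 437 and 304 of 1064 cells at 12 h, and 15, 27 and 94 of 136 at 0 h. Inside each of the 3 the IL-22-positive Cxcl2 ratio was under 2-fold (1.28, 1.90 and 1.66 in that order). Among IL-22-negative monocyte-like cells it was at 3568 (3499 to 3639) CPM at 12 h against 1269.7 (1179.6 to 1365) at 0 h, a ratio of 2.81 (2.61 to 3.03). More cells carried it and each carried more: 807 of 1064 IL-22-positive monocyte-like cells at 12 h with 17.3 UMIs per carrying cell, against 71 of 136 with 13.2 at 0 h. Among IL-22-negative ones 436 of 572 carried 23.0 each at 12 h, against 59 of 132 with 12.5 at 0 h. A minority of rich cells held much of it: 50% of the monocyte-like Cxcl2 UMIs lay in 130 IL-22-positive cells at 12 h and 11 at 0 h, and in 65 IL-22-negative cells at 12 h and 10 at 0 h.

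The shares kept this order at a common depth. With every cell thinned to 1000 UMIs, which left out 41, 2, 17 and 1 shallower cells, Cxcl2 was seen in 64.3% (61.3 to 67.3) of IL-22-positive monocyte-like cells at 12 h and 40.3% (31.9 to 49.1) at 0 h. In IL-22-negative ones it was seen in 62.0% (57.8 to 66.0) at 12 h and 34.4% (26.3 to 43.1) at 0 h. The unthinned shares were 75.8% and 52.2% at 12 h and 0 h in the IL-22-positive fraction, and 76.2% and 44.7% in the IL-22-negative one. B-cell-like cells of the IL-22-negative libraries, which should lack the gene and so show the free RNA of the droplets, had a Cxcl2 UMI in 1.66% of 1870 cells at 12 h and in 0.639% of 2035 at 0 h, at median depths of 1593.5 and 1711 UMIs against 4960.0 and 4449 in the monocyte-like cells. The monocyte-like shares lay far above that background.

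Neutrophil-like cells, few in number, carried the highest Cxcl2 level of any class. The 22 IL-22-positive neutrophil-like cells of 12 h held 467 UMIs in 21 cells, and the single such cell of 0 h held 20. The 48 IL-22-negative ones of 12 h held 972 UMIs in 42 cells, which is 9667 CPM (9069 to 10295), and the 9 of 0 h held 67 UMIs in 7 cells, which is 2892 CPM (2241 to 3673). With under 50 cells at each time no ratio is given. They contributed 2.99% of the Cxcl2 UMIs of the 12 h IL-22-positive library and 7.91% of the IL-22-negative one.

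Genes of the neutrophil list were also more abundant at 12 h in whole libraries, at 5348 CPM in all against 1526 at 0 h in IL-22-positive cells and 1550.5 against 430.8 in IL-22-negative ones. Their sum was also higher at 12 h inside the monocyte-like cluster, though not each gene was. In IL-22-positive monocyte-like cells Csf3r was at 48.6 CPM at 12 h against 60.3 at 0 h, and G0s2 at 5.66 against 17.2. Both were higher at 12 h in the IL-22-negative ones (41.4 against 29.3, and 4.99 against 0), and Clec4d in both fractions. The 10 listed genes summed to 3083 CPM in IL-22-positive monocyte-like cells at 12 h with 9 genes seen, against 141 with 6 seen at 0 h, and to 4059.6 with 8 seen in IL-22-negative ones at 12 h, against 67.3 with 5 seen at 0 h. S100a8, an alarmin of neutrophils and inflammatory monocytes, made up most of it, with 9098 UMIs at 12 h and 2 at 0 h in the IL-22-positive fraction, and 7985 at 12 h and 6 at 0 h in the other. Lcn2 had 2700 UMIs at 12 h and 6 at 0 h in the IL-22-positive fraction, and 2438 at 12 h and 7 at 0 h in the other. S100a9 had 562 and 504 UMIs at 12 h in the IL-22-positive and IL-22-negative fractions and 0 at 0 h in both, and Il1r2 had 114 and 140 at 12 h and 1 at 0 h in each. The defining neutrophil marker Ly6g had 1 and 0 UMIs at 12 h, Mmp9 had 2 and 0, and Retnlg 0 and 2, in the same order of fractions, and all 3 were at 0 at 0 h. Monocyte-like cells had 1072 Cxcl2 UMIs per Cxcr2 UMI at 12 h in the IL-22-positive fraction and 1668 in the IL-22-negative one, against 16.1 and 12.5 in the neutrophil-like cells of the same libraries. In monocyte-like cells with no UMI of the 10 genes, a split chosen after seeing the data, the Cxcl2 ratio of 12 h over 0 h was 1.79 (1.63 to 1.97; 414 and 88 cells) in the IL-22-positive fraction and 2.34 (2.12 to 2.59; 160 and 104 cells) in the IL-22-negative one. The first of these lies under 2-fold, as did the ratio in the remaining IL-22-positive monocyte-like cells (1.81, from 650 cells at 12 h and 48 at 0 h). What part these genes' cells have in the Cxcl2 result was not tested further.

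T-cell-like cells held a little Cxcl2 that was not spread evenly. In the IL-22-negative libraries 380 UMIs lay in 123 T-cell-like cells at 12 h and 91 in 37 cells at 0 h, a ratio of 2.78 (2.21 to 3.54), and Cxcl2 was the 1 member called higher there, against 1.54% of 10818 genes. At 12 h, 14 of these cells with at least 5 UMIs each held 246 of the 380 UMIs. Of the 14, 11 had a UMI of Cd3e, part of the T cell receptor complex, and 3 had one of Trac, another T cell marker. Of the same 14, 2 had one of the myeloid gene Lyz2 and 0 had one of S100a8. Doublets with a myeloid cell were not tested cell by cell. Cxcl2 was also the 1 member called higher in NK-or-ILC1-like cells (50 UMIs at 12 h against 6 at 0 h, 4.28-fold, 1.83 to 12.2) and in B-cell-like cells (33 against 13, 2.78-fold, 1.42 to 5.75), beside 1.19% and 0.775% of the genes measured in those classes. The NK-or-ILC1-like level, 15.02 CPM at 12 h, was near that of B-cell-like cells, 9.49, which was taken as free RNA. In pDC-like cells 0 of the 2 members with 20 UMIs, Ccl6 and Ccr2, were called, beside 1.5% of 7003 genes higher and 2.77% lower.

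**Figure D2:**
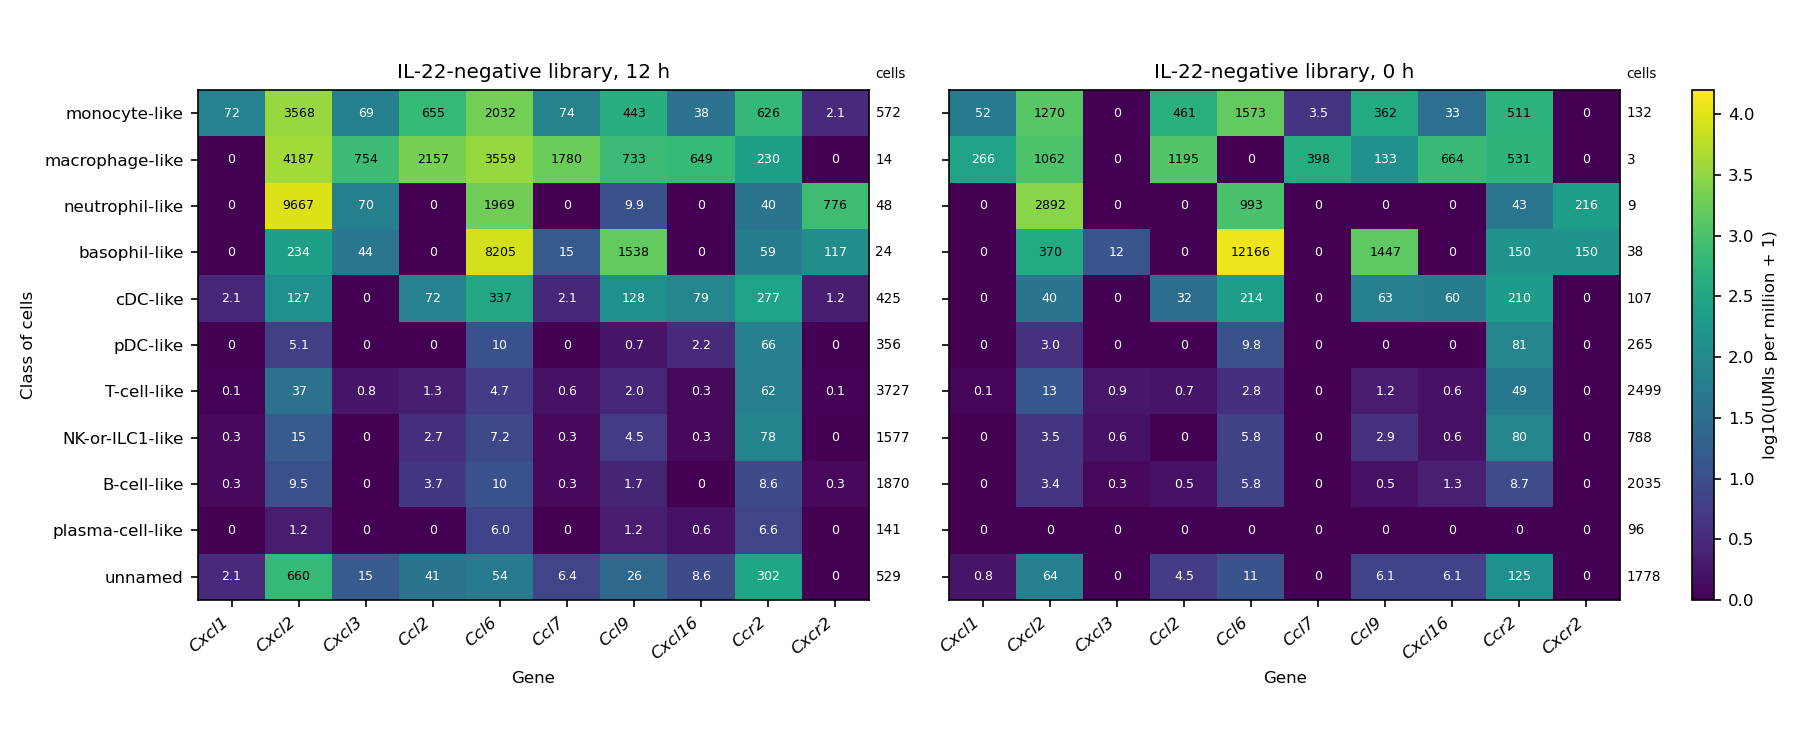
Level of each gene in each class of cells of the IL-22-negative libraries at 12 h (left) and 0 h (right). Colour is log10 of CPM plus 1, the number in a cell is CPM, and the count right of each row is the number of cells. Cxcl2 stands at 3568 CPM in monocyte-like cells of 12 h and at 9667 in the 48 neutrophil-like cells, Ccl6 peaks in basophil-like cells, and Ccr2 reaches into the lymphocyte classes.

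Cxcl1, the second neutrophil attractant, was scarcer and rested on few cells. The IL-22-positive library had 248 UMIs in 81 cells at 12 h and 15 in 7 cells at 0 h, and the IL-22-negative one had 211 in 46 cells at 12 h and 34 in 7 cells at 0 h. The library ratios were 3.78 (2.25 to 6.85) in the IL-22-positive fraction and 4.04 (2.80 to 5.99) in the IL-22-negative one. In monocyte-like cells it was at 53.1 CPM (225 UMIs, 71 cells) at 12 h against 8.61 (5 UMIs, 3 cells) at 0 h in the IL-22-positive fraction, a ratio of 6.17 (2.60 to 19.2). In the IL-22-negative fraction it was at 72.0 (202 UMIs, 41 cells) at 12 h against 51.8 (30 UMIs, 3 cells) at 0 h, a ratio of 1.39 (0.945 to 2.12). A single cell held 27 of those 30 UMIs. With the richest cell of each library left out, the IL-22-negative ratio was 12.6 (4.25 to 61.7) in monocyte-like cells and 17.9 (8.50 to 45.0) in the whole library. Neutrophil-like cells held 0 Cxcl1 UMIs in every library.

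Cxcl3, the third, had 9 UMIs at 0 h in both fractions together. It had 129 UMIs in 43 IL-22-positive cells at 12 h and 0 at 0 h, which allows up to 2.65 CPM there, so the level at 12 h was at least 9.82-fold higher. The IL-22-negative library had 254 UMIs in 43 cells at 12 h and 9 in 7 cells at 0 h, 18.4-fold (9.53 to 40.7). Monocyte-like cells held 121 UMIs in 36 IL-22-positive cells at 12 h (28.5 CPM) and 193 in 28 IL-22-negative ones (68.8 CPM), and 0 UMIs in 136 and 132 cells at 0 h, which allows up to 2.21% and 2.27% of cells with a UMI and sets no limit on cells that express the gene below detection. Against 3 UMIs per library the 12 h levels were at least 5.53-fold and at least 13.3-fold higher. In the 12 h IL-22-negative library a single macrophage-like cell held 36 further UMIs.

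Cells with Cxcl3 were also cells with Cxcl2. All 36 IL-22-positive and all 28 IL-22-negative monocyte-like cells with Cxcl3 at 12 h carried Cxcl2, against 75.0% of the cells without Cxcl3 in both fractions. Ccl7 was seen in 16 of those 36 IL-22-positive cells (44.4%, and 19.0% of the 84 cells with Ccl7) and in 6.61% of cells without Cxcl3. Among IL-22-negative monocyte-like cells it was seen in 15 of the 28 (53.6%, and 35.7% of the 42 cells with Ccl7) and in 4.96% of cells without Cxcl3. Median depths with and without Cxcl3 were 3486.5 and 4025.5 UMIs in the IL-22-positive cells and 4991 and 4954.5 in the IL-22-negative ones, so the carriers were shallower in the first fraction and about as deep in the second.

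Ccl2, the main attractant of Ccr2-bearing monocytes, was itself a product of monocyte-like cells. The library level was 674.1 (651.4 to 697.4) CPM in IL-22-positive cells at 12 h against 238.7 (211.0 to 268.9) at 0 h, 2.82-fold (2.49 to 3.21). In IL-22-negative cells it was 83.5 (80.0 to 87.1) at 12 h against 18.2 (16.2 to 20.3) at 0 h, 4.60-fold (4.08 to 5.20). Monocyte-like cells held 93.6% of these UMIs at 12 h and 66.3% at 0 h in the IL-22-positive libraries, and 84.8% and 87.0% in the IL-22-negative ones. Within them the level was 737.1 CPM (593 of 1064 cells) at 12 h against 308.1 (40 of 136 cells) at 0 h in the IL-22-positive fraction, a ratio of 2.39 (2.06 to 2.80). In the IL-22-negative fraction it was 655.3 (340 of 572 cells) at 12 h against 460.6 (63 of 132 cells) at 0 h, a ratio of 1.42 (1.25 to 1.62), which is under 2-fold.

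Ccl7, the second Ccr2 ligand, had the highest called ratios of the monocyte attractants, from very small 0 h counts. It had 624 UMIs in 100 IL-22-positive cells at 12 h and 15 in 6 cells at 0 h, 9.50-fold (5.72 to 17.1). The IL-22-negative library had 309 UMIs in 58 cells at 12 h and 5 in 2 cells at 0 h, 40.2-fold (17.1 to 125), and 75.2-fold without the richest cell of each library, where 2 UMIs were left at 0 h. In monocyte-like cells 526 UMIs lay in 84 IL-22-positive cells at 12 h and 2 in 2 cells at 0 h, 36.0-fold (9.93 to 298). In IL-22-negative ones 207 UMIs lay in 42 cells at 12 h and 2 in 1 cell at 0 h, 21.4-fold (5.85 to 178). Both intervals are wide because each rests on 2 UMIs at 0 h.

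Macrophage-like cells were the second source of Ccl7. At 0 h they held 13 of the 15 UMIs of the IL-22-positive library (86.7%, in 4 of 42 cells) and 3 of the 5 UMIs of the IL-22-negative one. At 12 h the 98 IL-22-positive macrophage-like cells held 97 UMIs in 15 cells, 344.9 CPM (279.7 to 420.7) against 77.4 (41.2 to 132.4) at 0 h. In the 12 h IL-22-negative library, 85 UMIs lay in 2 of 14 macrophage-like cells, 78 of them in 1 cell. Cxcl2 was at 3932 CPM in the 98 IL-22-positive macrophage-like cells of 12 h (74 with a UMI) and 1762 in the 42 of 0 h (17 with a UMI), and Ccl2 at 707.6 and 476.3 CPM at 12 h and 0 h. These are too few cells at 0 h for a ratio under the limit of 50 cells.

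Ccl6 and Ccl9, neighbours on chromosome 11 that signal through Ccr1, changed by less than 1.5-fold in monocyte-like cells taken as a whole. Inside some sub-clusters described below the change was larger, while the values here are for the whole class. Ccl6 was at 1467 (1430.5 to 1504) CPM at 12 h against 1159 (1073 to 1249) at 0 h in the IL-22-positive fraction and 2032 (1979.7 to 2086) against 1573 (1473 to 1679) in the IL-22-negative one, with ratios of 1.27 and 1.29. Ccl9 was at 270.8 (255.4 to 286.9) at 12 h against 273.7 (232.8 to 319.7) at 0 h in the IL-22-positive fraction, a ratio of 0.989 (0.837 to 1.18). Among IL-22-negative monocyte-like cells it was at 443.1 (418.9 to 468.5) against 362.3 (314.9 to 414.7), a ratio of 1.22 (1.06 to 1.42). In whole libraries Ccl6 was 1.69-fold and Ccl9 1.41-fold higher at 12 h in the IL-22-positive fraction, and they were 2.26-fold (2.16 to 2.38) and 2.88-fold (2.58 to 3.22) higher in the IL-22-negative one.

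Basophil-like cells, granulocytes of allergic and helminth responses, were a second and very rich source of both. In the 12 h IL-22-negative library, 22 of 24 basophil-like cells held 560 Ccl6 UMIs, 8205 CPM (7539 to 8914), and at 0 h 36 of 38 held 1051, 12166 CPM (11442 to 12925). These 38 cells held 48.1% of the Ccl6 of the 0 h IL-22-negative library, and the 24 cells of 12 h held 7.37%. Ccl9 was at 1538 (1258 to 1862) CPM at 12 h against 1447 (1204 to 1724) at 0 h in the same cells. The 2 times overlap for Ccl9 within counting error. Across 17 sums of class and library with at least 50 cells, none basophil-like, log2 values were taken with 10 CPM added. Ccl6 and Ccl9 had a Pearson correlation of 0.992 over these sums. That is given as a description, since sums of one library share its depth and classes.

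Cxcl16, the ligand of Cxcr6, was the member whose library level went opposite ways in the 2 fractions. It was at 83.4 (75.5 to 91.8) CPM in IL-22-positive cells at 12 h against 120.2 (100.9 to 142.2) at 0 h, a ratio of 0.694 (0.570 to 0.848). IL-22-negative cells had 13.1 (11.7 to 14.6) at 12 h against 4.50 (3.54 to 5.63) at 0 h, a ratio of 2.91 (2.27 to 3.79). Within monocyte-like cells the ratios were 0.745 (0.550 to 1.03) and 1.16 (0.710 to 2.01) in the IL-22-positive and IL-22-negative fractions, and both intervals hold 1.

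Macrophage-like and cDC-like cells had higher Cxcl16 levels than monocyte-like cells as a whole, which were at 64.2 CPM at 12 h against 86.1 at 0 h in the IL-22-positive fraction and at 38.1 against 32.8 in the IL-22-negative one. By share of UMIs, monocyte-like cells held 65.9% of the IL-22-positive library at 12 h and 36.8% at 0 h. In the IL-22-negative libraries cDC-like cells held 190 of 340 UMIs at 12 h (55.9%) and 34 of 76 at 0 h (44.7%), at 79.1 (68.3 to 91.2) against 59.5 (41.2 to 83.2) CPM, a ratio of 1.33 (0.919 to 1.98). In the IL-22-positive libraries macrophage-like cells had 352.0 (286.1 to 428.6) CPM at 12 h against 381.0 (293.4 to 486.6) at 0 h, and the few cDC-like cells, 38 at 12 h and 13 at 0 h, had 244.6 and 262.7. Neutrophil-like cells held 0 Cxcl16 UMIs in every library. Its receptor Cxcr6 was found in lymphocytes: T-cell-like cells of the IL-22-negative libraries had 95.2 CPM (728 of 3727 cells) at 12 h against 106.7 (510 of 2499 cells) at 0 h, and NK-or-ILC1-like cells had 79.3 against 94.1.

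Counts in the smaller classes complete the account of the sources. Neutrophil-like cells held 61 Ccl6 UMIs in 19 of 22 IL-22-positive cells at 12 h and 3 in 1 cell at 0 h, and 198 in 37 of 48 IL-22-negative cells at 12 h and 23 in 5 of 9 at 0 h. They held 0 UMIs of Ccl2, Ccl7, Cxcl1 and Cxcl16 in any library. Macrophage-like cells sorted as IL-22-positive had Ccl6 at 807.1 CPM at 12 h against 1077.6 at 0 h, Ccl9 at 117.3 against 142.9, Ccr2 at 376.9 against 273.9 and Cxcl1 at 78.2 against 59.5. Cells of the unnamed clusters in the IL-22-negative libraries held 308 Cxcl2 UMIs at 12 h (42 of 529 cells) and 84 at 0 h (32 of 1778 cells).

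cDC-like cells of the IL-22-negative libraries, 425 at 12 h and 107 at 0 h, gave 6 members enough UMIs for a ratio, and 3 were called higher and 0 lower, beside 5.23% of 7186 genes called higher and 4.58% lower. Cxcl2 was at 126.6 CPM (47 cells) at 12 h against 40.3 (8 cells) at 0 h, 3.15-fold (2.06 to 5.04). Ccl2 was at 71.6 (39 cells) against 31.5 (9 cells), 2.27-fold (1.40 to 3.93), and Ccl9 at 127.8 (140 cells) against 63.0 (21 cells), 2.03-fold (1.43 to 2.95). With doublet calls kept the Ccl9 ratio was 1.76. All 3 levels lay below those of monocyte-like cells in the same libraries.

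Ccr2, the receptor of Ccl2 and Ccl7, marked the monocyte-like cells at both times. It was at 701.3 (676.3 to 727.0) CPM in 864 of 1064 IL-22-positive monocyte-like cells at 12 h against 616.3 (554.1 to 683.6) in 96 of 136 at 0 h, a ratio of 1.14 (1.02 to 1.27). In the IL-22-negative fraction it was at 626.0 (597.1 to 656.0) in 472 of 572 cells at 12 h against 510.6 (454.1 to 572.3) in 105 of 132 at 0 h, a ratio of 1.23 (1.08 to 1.39). The library ratios, 1.70 (1.54 to 1.89) in IL-22-positive cells and 1.99 (1.86 to 2.12) in IL-22-negative ones, were both under 2-fold.

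Outside the monocytes Ccr2 was broad in the IL-22-negative libraries, where monocyte-like cells held 48.7% of its UMIs at 12 h and 25.0% at 0 h. cDC-like cells had 276.5 (255.9 to 298.4) CPM at 12 h against 210.0 (174.1 to 251.1) at 0 h. T-cell-like cells had 62.0 against 48.7, a ratio of 1.27 (1.11 to 1.46), NK-or-ILC1-like cells 78.1 against 79.5, and pDC-like cells 66.0 against 80.8. B-cell-like cells, at 8.62 against 8.67, lay several-fold below the other lymphocytes, so Ccr2 in those classes is above the level of free RNA.

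Cxcr2, the receptor of Cxcl1, Cxcl2 and Cxcl3, lay mainly in neutrophil-like and basophil-like cells and had the fewest UMIs of the 10 members over the 4 libraries. Since it was among the leading genes of the neutrophil-like cluster, its level there is a description. It had 42 UMIs in 23 IL-22-positive cells at 12 h and 3 in 2 cells at 0 h, 3.20-fold (1.02 to 16.1), and 97 UMIs in 53 IL-22-negative cells at 12 h and 18 in 14 cells at 0 h, 3.51-fold (2.11 to 6.17). Neutrophil-like cells held 29 of the 42 IL-22-positive UMIs at 12 h (69.0%) and 78 of the 97 IL-22-negative ones (80.4%), at 820.3 (549.4 to 1178) and 775.8 (613.2 to 968.2) CPM. At 0 h the larger share of the IL-22-negative library lay in basophil-like cells, with 13 of 18 UMIs in 10 of 38 cells. Monocyte-like cells held 13 UMIs of 4239392 at 12 h in the IL-22-positive fraction and 6 of 2804926 in the IL-22-negative one, and 0 at 0 h in both.

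Within monocyte-like cells taken as a whole, the members split into those with higher levels at 12 h and those that stayed within 1.5-fold. In the IL-22-positive fraction Cxcl1, Cxcl2, Cxcl3, Ccl2 and Ccl7 were called higher, 5 of the 9 members with 20 UMIs, against 7.27% of 8268 genes. Among IL-22-negative monocyte-like cells Cxcl2, Cxcl3 and Ccl7 were called higher, 3 of 9, against 7.73% of 7721 genes. No member was called lower in either fraction, against 7.26% and 3.85% of those genes. The median log2 ratio over the 9 members was 1.02 in the IL-22-positive fraction and 0.48 in the IL-22-negative one, beside -0.07 and 0.02 over all measured genes. Cxcl2 and Cxcl3 in the IL-22-positive fraction depend on settings: with barcodes of at least 5% mitochondrial UMIs removed their ratios were 1.87 and, as a lower bound, 1.57.

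**Figure D3:**
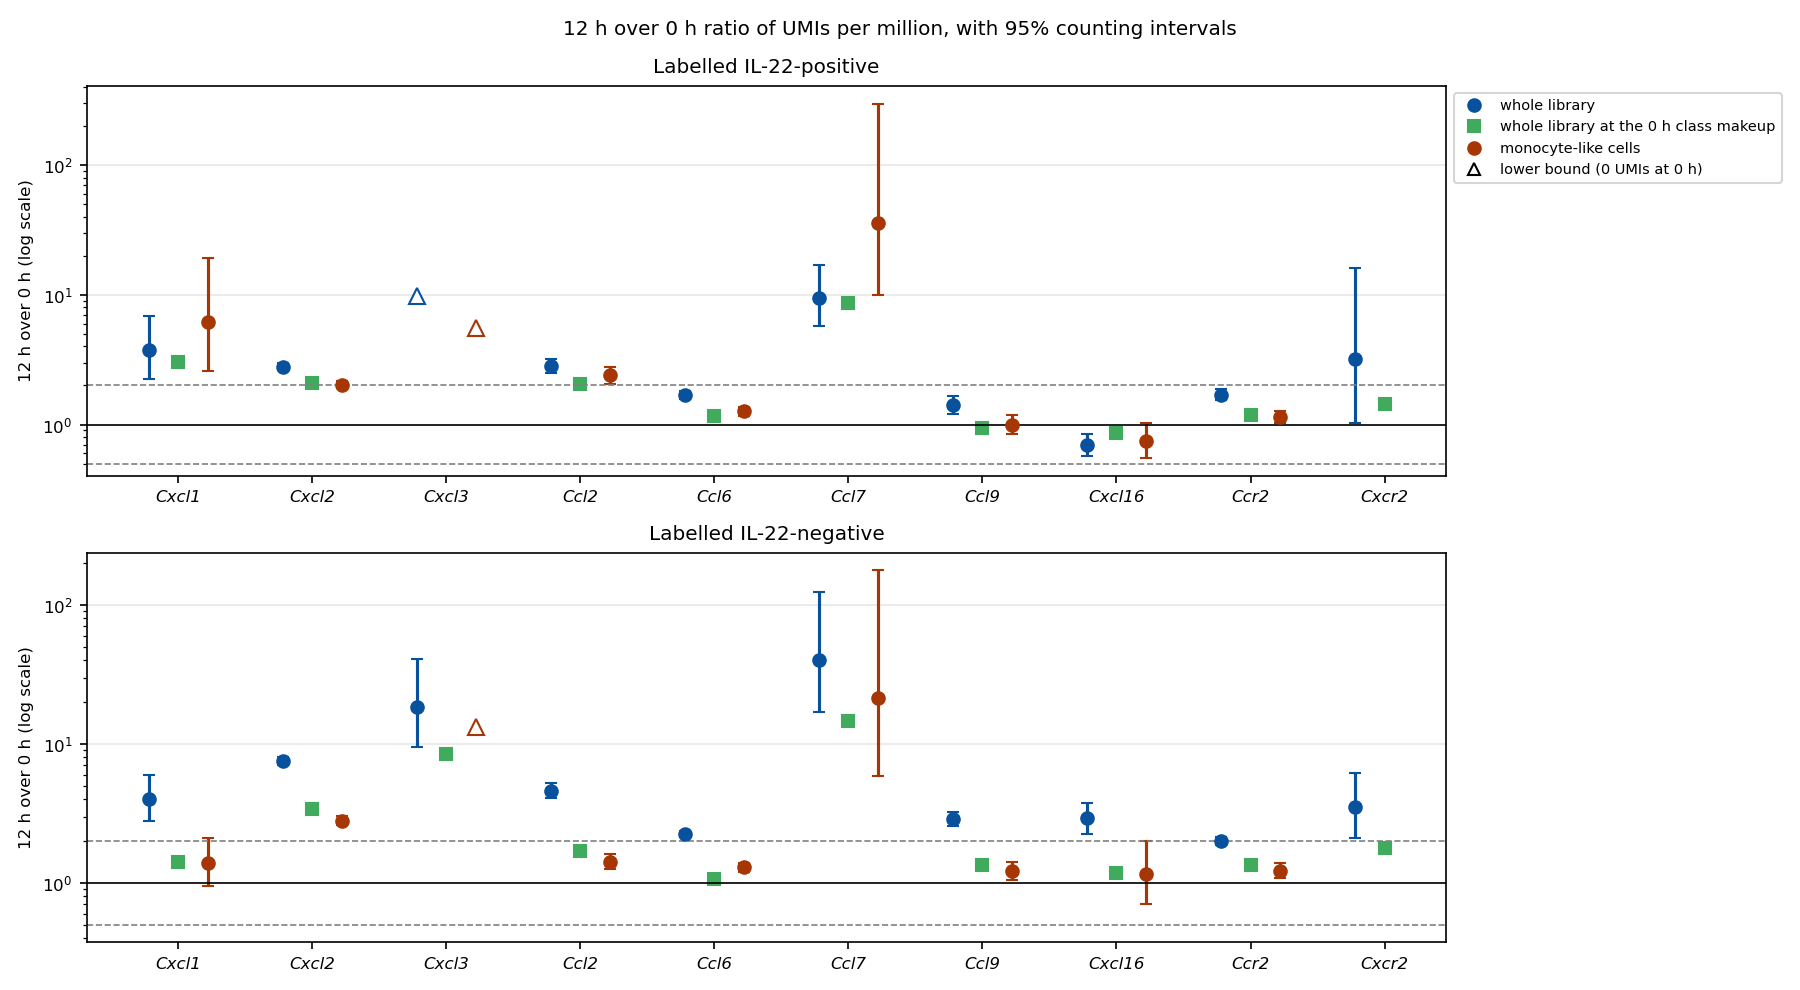
Ratio of 12 h over 0 h for each gene, on a log axis, in the IL-22-positive (top) and IL-22-negative (bottom) fraction. Circles are whole libraries and monocyte-like cells with 95% counting intervals, squares are library ratios with the 0 h class makeup held fixed, triangles are lower bounds against 0 UMIs, and dashed lines mark 2-fold. In the IL-22-negative fraction the squares lie below the library circles for every gene, as for Ccl6 at 1.06 against 2.26.

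How much of a library ratio came with the change in class makeup was computed by giving the 12 h levels of each class the 0 h share of UMIs. Shifts inside a class, such as the larger share of Arg1-led cells among monocyte-like cells at 12 h, were not held fixed. In the IL-22-negative fraction, where monocyte-like cells held 10.8% of UMIs at 12 h against 3.43% at 0 h, the Cxcl2 ratio was then 3.40 in place of 7.52, and makeup alone gave 2.58. Ccl2 came to 1.69 in place of 4.60, with 3.05 from makeup alone, Ccl9 to 1.35 in place of 2.88, Cxcl16 to 1.17 in place of 2.91 and Cxcl1 to 1.41 in place of 4.04. Ccl7 came to 14.5 in place of 40.2 and Cxcl3 to 8.46 in place of 18.4. Cxcr2 came to 1.77 in place of 3.51. Most of the 0 h Cxcl1 lay in the single monocyte-like cell with 27 UMIs. Of the 9 members called higher in that library, Cxcl2, Cxcl3 and Ccl7 were past 2-fold at the 0 h makeup. With the 12 h makeup held fixed instead, an alternative chosen after seeing the data, they were at 2.91, 20.1 and 10.8, and Cxcr2 was past 2-fold as well, at 3.03.

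In the IL-22-positive fraction monocyte-like cells held 85.6% of UMIs at 12 h against 51.3% at 0 h. At a fixed makeup the ratios were 2.08 for Cxcl2, 2.05 for Ccl2, 3.02 for Cxcl1 and 8.68 for Ccl7, while Ccr2 came to 1.19, Ccl6 to 1.16, Ccl9 to 0.939 and Cxcl16 to 0.854. Cxcr2 came to 1.45. At the 12 h makeup Cxcl2 was at 2.05, Ccl2 at 2.28, Cxcl1 at 4.66, Ccl7 at 17.2 and Cxcr2 at 2.71. Cxcl3 was at 0 in the 0 h library and was left out. The 0 h makeup ratios near 2-fold, of Cxcl2 and Ccl2, were under it with the 5% mitochondrial limit, at 1.84 and 1.90.

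Between the 2 sort fractions, most members differed by less than 2-fold in monocyte-like cells. At 12 h the IL-22-positive over IL-22-negative ratio lay between 0.611 (Ccl9) and 1.68 (Ccl7 and Cxcl16) for 8 of the 9 members with 20 UMIs. The ninth, Cxcl3, was lower in IL-22-positive cells, at 28.5 against 68.8 CPM, a ratio of 0.415 (0.328 to 0.523), and 0 members were called higher, beside 6.79% of 9017 genes lower and 3.09% higher. This Cxcl3 call was lost under other settings: the ratio was 0.691 with the 5% mitochondrial limit and 1.09 with chemokine genes used to cluster. Under the same settings Ccl7 was called higher in IL-22-positive cells, at 2.76 and 3.47 in place of 1.68. At 0 h Cxcl16 was higher in IL-22-positive monocyte-like cells, at 86.1 (50 UMIs, 22 cells) against 32.8 CPM (19 UMIs, 10 cells), a ratio of 2.63 (1.52 to 4.72). Cxcl1 was called lower there on the 1 cell with 27 UMIs, at 0.166 (0.0504 to 0.433), and had under 20 UMIs without the richest cells. Of 5233 genes 7.76% were called higher and 4.32% lower in that comparison.

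Clustering of all kept cells at resolution 2, also without chemokine genes, divided the monocyte-like cells. It gave 3 sub-clusters of at least 50 of these cells, called by their leading genes, with 23 of the 1904 cells outside them. The S100a8-led one (917 cells) had 6 of 7 classical monocyte markers raised and S100a8 and Lcn2 of the neutrophil list in the lead, the Ace-led one (528 cells) 5 of 6 markers of non-classical, vessel-patrolling monocytes, and the Arg1-led one (436 cells) 4 of 6 Arg1 macrophage markers. Arg1-led cells numbered 312 of 1064 IL-22-positive monocyte-like cells at 12 h and 15 of 136 at 0 h, and 101 of 572 IL-22-negative ones at 12 h and 8 of 132 at 0 h. Since Ccl7 stands among the leading genes of the Arg1-led cells, its place there describes them and is no separate result. The name S100a8-led fits cells of 12 h only. At 0 h all 136 IL-22-positive monocyte-like cells together held 2 S100a8 UMIs, and all 132 IL-22-negative ones held 6.

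Arg1-led cells carried most of the Ccl7 and Cxcl3. At 12 h they held 448 of the 526 monocyte-like Ccl7 UMIs of the IL-22-positive fraction and 182 of the 207 of the IL-22-negative one, and 97 of 121 and 171 of 193 Cxcl3 UMIs. At 0 h their 15 and 8 cells held 0 UMIs of both genes. Cxcl2 was at 4974 (4849.8 to 5099.8) CPM in IL-22-positive Arg1-led cells at 12 h and 7052 (6817 to 7294) in IL-22-negative ones. Ccl2 was at 1234 (1173 to 1298) CPM in the IL-22-positive cells and 1602 (1491 to 1719) in the IL-22-negative ones at 12 h. S100a8-led and Ace-led cells of 12 h lay lower for both genes in both fractions, with Cxcl2 at 2911 and 1897 CPM in the IL-22-positive fraction and 3026 and 1944 in the IL-22-negative one.

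Inside the sub-clusters the Cxcl2 ratio was over 1 in each fraction but past 2-fold in 2 of 6 pairs, the IL-22-negative S100a8-led and Arg1-led cells. Pairs with at least 50 cells at both times were the IL-22-positive Ace-led cells (304 and 94) and the IL-22-negative S100a8-led cells (359 and 94). In the Ace-led cells Cxcl2 was at 1897 CPM at 12 h against 1143 at 0 h, 1.66-fold (1.49 to 1.85), which is under the call, Ccl2 was 1.86-fold (1.47 to 2.37), Cxcl16 2.56-fold (1.39 to 5.15; 81 against 12 UMIs) and Ccr2 1.55-fold (1.32 to 1.82). In the S100a8-led cells Cxcl2 was at 3026 CPM at 12 h against 1297 at 0 h, 2.33-fold (2.14 to 2.54), while Ccl2 stayed at 0.990 (0.856 to 1.15). The 0 h cells of this pair had next to no S100a8, so the pair does not compare cells of 1 S100a8-high state. The other 4 pairs rest on few cells at 0 h: Cxcl2 was at 1.90 (1.66 to 2.19; 27 cells at 0 h) in IL-22-positive S100a8-led cells, 1.28 (1.14 to 1.44; 15 cells) in IL-22-positive Arg1-led, 1.88 (1.52 to 2.36; 29 cells) in IL-22-negative Ace-led and 4.48 (3.43 to 5.98; 8 cells) in IL-22-negative Arg1-led cells.

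Cxcl16 at 12 h was highest in the Arg1-led cells, at 134.9 CPM in the IL-22-positive fraction and 124.7 in the IL-22-negative one. Ace-led cells had 85.2 and 74.4 CPM, and S100a8-led cells, the lowest, 11.3 and 8.77. In the Arg1-led cells the level at 12 h was below that of the few such cells of 0 h, which had 396.5 CPM in 15 IL-22-positive cells and 320.3 in 8 IL-22-negative ones, ratios of 0.340 (0.232 to 0.514) and 0.389 (0.203 to 0.821). That is opposite to the ratio in the IL-22-positive Ace-led cells. Against the same few Arg1-led cells of 0 h, Ccl6 was at 2.53 (1.89 to 3.45) in the IL-22-positive fraction and 3.45 (2.46 to 5.01) in the other. Ccl9 was at 2.10 (1.28 to 3.70) and 2.52 (1.46 to 4.77) there. In S100a8-led and Ace-led cells the Ccl6 ratios lay between 0.946 and 1.10. Those of Ccl9 ran from 0.527 in IL-22-positive S100a8-led cells to 1.85 in IL-22-negative Ace-led ones.

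**Figure D4:**
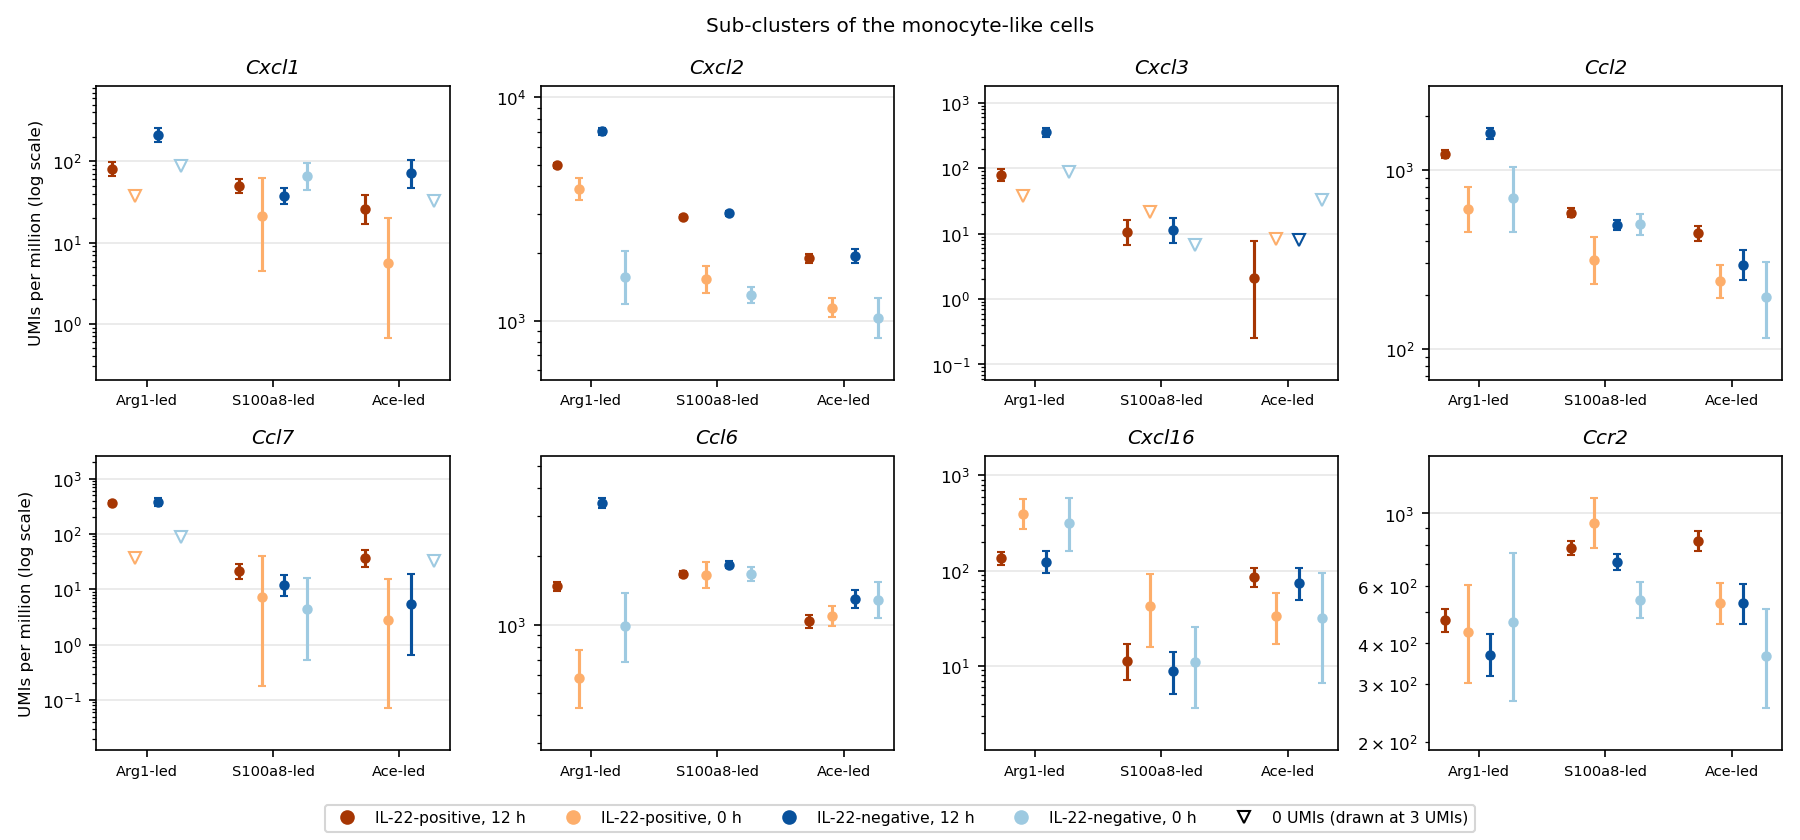
Levels of 8 members in the 3 sub-clusters of monocyte-like cells, in CPM on a log scale with 95% Poisson intervals. Within each sub-cluster the points run from IL-22-positive (12 h, 0 h) to IL-22-negative (12 h, 0 h), and open triangles are sums of 0 drawn at 3 UMIs. Cxcl3 and Ccl7 of 12 h stand highest in the Arg1-led cells, and Cxcl16 of 12 h is lowest in the S100a8-led ones.

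The genes most like each member were sought over the 17 sums of class and library with at least 50 cells, on the same log2 scale, among 2408 genes. For Cxcl2 they were Clec4a2 (Pearson 0.985), Tgfbi (0.985) and Cd302 (0.982), and for Ccl2 they were Clec4a2 (0.997), Cd302 and Fcgr1. Among the members Cxcl2 and Ccl2 were closest to each other, at 0.986. Ccl7 lay nearest to Pf4 (0.994), a chemokine of platelets and macrophages, and to C5ar1, the receptor of complement C5a. Cxcl3 and Cxcr2 both lay nearest to S100a8, S100a9 and Lrg1, at 0.956, 0.969 and 0.959 for Cxcl3 and 0.909, 0.902 and 0.945 for Cxcr2. The sums held no neutrophil-like or basophil-like cells, where Cxcr2 mainly lay. In monocyte-like cells Cxcr2 was at 3.07 and 2.14 CPM at 12 h in the IL-22-positive and IL-22-negative fractions, under the 10 CPM added. Cxcl3, S100a8 and S100a9 also differed between 12 h and 0 h inside monocyte-like cells. All such values rest on contrasts between classes and times and carry no test.

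In whole libraries the rest of the chemokine system had lower median ratios than the 10 members, over lists written with earlier results of these data known. Of 27 other ligands in the features, 15 had 20 UMIs in the IL-22-negative libraries and 7 were called higher at 12 h (Ppbp, Pf4, Cxcl10, Ccl1, Ccl12, Ccl17 and Ccl24). None of the 15 was called lower, and their median log2 ratio was 0.65. In the IL-22-positive libraries 4 of 14 were higher (Pf4, Cxcl10, Ccl12 and Ccl17) and 4 lower (Cxcl13, Ccl5, Ccl27a and Xcl1), with a median of 0.06. Inside monocyte-like cells this order did not hold in both fractions. The other ligands had a median log2 ratio of 0.86 in IL-22-positive cells, with 4 of 9 called higher and 0 lower, beside 1.02 for the members. In IL-22-negative cells they had 1.21, with 5 of 10 called higher and 1 lower, beside 0.48 for the members. Ccl12, a further Ccr2 ligand of mice, was 2.09-fold higher at 12 h in the IL-22-positive fraction and 13.9-fold higher in the IL-22-negative one. Ppbp, a platelet chemokine that also binds Cxcr2, had 16 UMIs in the 12 h IL-22-positive library and 0 at 0 h, against 135 and 1 in the IL-22-negative libraries of those times. Ccl8, a monocyte attractant, had 19 and 2 UMIs at 12 h in the IL-22-positive and IL-22-negative libraries and 0 at 0 h. Cxcl5, a Cxcr2 ligand, had 3 UMIs in all, and Cxcr1, a relative of Cxcr2, and the decoy receptor Ackr1 had 0.

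Among receptors, Ccr1, which reads Ccl6 and Ccl9, was higher at 12 h in both fractions, 3.38-fold in IL-22-positive and 6.54-fold in IL-22-negative libraries. In monocyte-like cells it was at 59.2 CPM (251 UMIs, 187 cells) at 12 h against 6.89 (4 UMIs, 3 cells) at 0 h in the IL-22-positive fraction, and at 49.2 (138 UMIs, 114 cells) against 17.3 (10 UMIs, 6 cells) in the IL-22-negative one. Ccrl2 was also called higher in the IL-22-negative libraries, and Cxcr5 and Ccr8 lower, of 15 receptors with 20 UMIs. In the IL-22-positive libraries Cxcr3, Cxcr6, Ccr7 and Ccr9, receptors of lymphocytes, were called lower, of 9 measured, where T-cell-like cells were 36 of 1335 cells at 12 h against 38 of 288 at 0 h.

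Cytokines that induce these ligands, or that feed neutrophil and monocyte growth, were given as 14 genes. Of the 8 with 20 UMIs in the IL-22-positive libraries, Il1a, Il1b, Il6, Csf1 and Mif were called higher and Ifng lower. Of the 9 in the IL-22-negative libraries, Il1a and Il1b were called higher and Csf1 lower. Il1b, which induces many chemokines, was 2.36-fold (2.10 to 2.68) higher at 12 h in IL-22-positive cells and 6.67-fold (5.86 to 7.61) higher in IL-22-negative ones. Il1a rested on 58 UMIs at 12 h against 1 at 0 h in the IL-22-positive libraries, and on 45 against 0 in the IL-22-negative ones, at least 9.77-fold. Csf1, a growth factor of monocytes and macrophages, went opposite ways, with 41 UMIs at 12 h against 1 at 0 h in IL-22-positive cells (9.36-fold, 1.59 to 379) and a ratio of 0.468 (0.398 to 0.551) in IL-22-negative cells. Csf1 was the first leading gene of the basophil-like cells, which numbered 24 at 12 h and 38 at 0 h in the IL-22-negative libraries. Mif was 2.89-fold (2.51 to 3.34) higher and Ifng lower, at 0.0979-fold (0.0395 to 0.223), in the IL-22-positive libraries, where lymphocyte classes made up a smaller share at 12 h.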

How the data were processed

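The deposited matrices hold raw UMI counts per gene and cell barcode, made by the authors with Cell Ranger 4.0.0 per the file headers and 3.0.1 per the submitters' processing notes, on mm10 per those notes. Nothing in them was normalized, and 0 columns were left unused. From these counts, barcodes were retained that showed 200 genes or more and a mitochondrial share below 10% (1378, 300, 10231 and 8555 barcodes were deposited for IL-22-positive 12 h, IL-22-positive 0 h, IL-22-negative 12 h and IL-22-negative 0 h). The automatic Scrublet threshold called 5, 6, 1 and 0 doublets in the same order, so the highest scores were removed at 0.8% per 1000 barcodes, a choice made after seeing that failure. Scanpy 1.11.5 (Python 3.11.15, igraph 0.11.9, scikit-learn 1.9.0) scaled counts to 10000 per cell and clustered on 2000 variable genes without chemokine and chemokine receptor genes, 30 components, 15 neighbours and resolution 1. The limits for naming were set with the clusters in view.

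Sums of UMIs over libraries and classes were taken with numpy 2.4.6 and pandas 2.3.3, and exact intervals came from scipy 1.17.1. A ratio against 0 UMIs is a bound against 3 UMIs in that sum, and classes were compared between times only with at least 50 cells at both. Ratios, calls and intervals were run on simulated library sums drawn with independent counting error. Those sums hold no cells or classes, so they cannot check the clustering or the spread between cells. The named genes were the members, other chemokine and receptor genes on their axes or past 2-fold, and listed cytokines past 2-fold. The members, gene lists and alternatives were chosen with earlier results of these data known, and 3 alternatives were added after seeing these values: the 12 h makeup held fixed, monocyte-like cells left out of the library sums, and monocyte-like cells split by neutrophil genes. Gene positions come from an annotation of the same build as the files. No protein sequence was used here.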

Additional observations from a re-analysis of the deposited data

Results flagged for a closer look

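Cxcl16 went opposite ways in the 2 sort fractions, with both counting intervals clear of 1. Its library level at 12 h over 0 h was 0.694 (0.570 to 0.848) in IL-22-positive cells and 2.91 (2.27 to 3.79) in IL-22-negative cells. With 1 library per group the difference between the fractions was not tested. Within monocyte-like cells the ratios were 0.745 (0.550 to 1.03) and 1.16 (0.710 to 2.01), and at the 0 h makeup the library ratios were 0.854 and 1.17, in the same order of fractions. Monocyte-like cells held 65.9% of Cxcl16 UMIs at 12 h and 36.8% at 0 h in the IL-22-positive libraries, and 31.5% and 25.0% in the IL-22-negative ones.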

How the results depend on the processing

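No paired analysis was possible because each group is 1 library with no numbered replicate, and no replicate could be left out. The counts of members called higher in whole libraries, 6 of 10 in IL-22-positive and 9 of 10 in IL-22-negative cells, stayed within 1.5 times under every alternative run on them, with 10 of 10 in IL-22-negative cells when scaled by the median ratio. For IL-22-positive monocyte-like cells the count was 3 in place of 5 with mitochondrial UMIs under 5% and also with chemokine genes used to cluster. In both settings Cxcl2 (1.87 and 1.9997) and Cxcl3 (bounds of 1.57 and 1.32) were no longer called. For IL-22-positive over IL-22-negative monocyte-like cells the count called higher was 1 in place of 0 at 12 h under those 2 settings, with Ccl7 at 2.76 and 3.47, and 2 with 1.5-fold as the call. At 0 h it was 2 in place of 1 with doublet calls kept and at resolution 0.5. The Cxcl3 ratio of that comparison turned from 0.415 to 1.09 with chemokine genes used to cluster. Then 55 IL-22-positive and 43 IL-22-negative monocyte-like cells of 12 h joined an unnamed cluster, with 96 of 121 and 178 of 193 Cxcl3 UMIs. With mitochondrial UMIs under 5%, 48 and 26 such cells became unnamed, with 75 of 121 and 161 of 193 Cxcl3 UMIs. With monocyte-like cells left out, 13 of the 15 library calls still had 20 UMIs behind them, and 9 were kept. The 4 lost were Cxcl1 at 1.77 and Ccl2 at 1.81 in IL-22-positive cells, and Ccl6 at 1.05 and Ccl9 at 1.92 in IL-22-negative ones. Cxcl3 in IL-22-positive cells and Cxcl1 in IL-22-negative cells fell under 20 UMIs and had no ratio. Without the richest cell of each gene, 28 of the 29 calls still had 20 UMIs and were kept. Cxcl1 and Ccl7 moved by over 1.5 times in IL-22-positive cells (5.84 and 14.9 in the library, 9.45 and 67.0 in monocyte-like cells), as did Cxcr2 in that library (8.68). In the IL-22-negative library Cxcl1 came to 17.9 and Ccl7 to 75.2. Cxcl1 in IL-22-negative monocyte-like cells came to 12.6 and was then called higher. Thinning moved 67 of 80 shares of cells beyond their intervals, as fewer UMIs are read. Depth limits the 288 IL-22-positive cells of 0 h most, where 3 UMIs are 2.65 CPM.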

Other observations

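Genes of non-leukocyte lists were low in every library. Hepatocyte genes summed to 137 CPM at 12 h against 109 at 0 h in IL-22-positive cells and to 43.6 against 27.7 in IL-22-negative cells, endothelial genes to 12.1 against 18.6 and 10.2 against 8.28, and epithelial or carcinoma genes to 3.23 against 5.30 and 19.4 against 20.3. Erythroid genes stood at 185 CPM in IL-22-negative cells at 12 h against 4.08 at 0 h, and at 1.41 against 0.884 in IL-22-positive cells.

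Pf4 and Ccl12, chemokines of macrophages, were counted in the same monocyte-like cluster as the members. Pf4 had 790 UMIs in 36 IL-22-positive cells at 12 h and 222 in 16 IL-22-negative cells, and 0 at 0 h in both fractions. Ccl12 had 241 UMIs at 12 h against 1 at 0 h in IL-22-positive monocyte-like cells and 94 against 0 in IL-22-negative ones.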
